A study of Arabidopsis thaliana with 6 samples.

Results

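Secondary cell walls of xylem vessels and fibres are built from cellulose, xylan and lignin, and 52 genes that make or modify these polymers, of 33316 genes in the tables, were followed in Arabidopsis stems. They were listed by AGI code under their known roles, with earlier results of these data known. They fall into 9 subgroups: cellulose synthases and their helpers (8 genes), xylan synthesis (14), xylan and wall acetylation (5), the general phenylpropanoid pathway (6), monolignol synthesis (9), laccases (3), peroxidases (3), monolignol glucosidases (2) and xylem cysteine proteases (2). RNA was sequenced from second internodes of inflorescence stems of plants 15 to 20 cm tall, with 3 libraries for DEX and 3 for Mock. DEX plants carried *p35S:Myc-GR-bdl* and were dipped in 15 µM dexamethasone (Dex) for harvest 3 h later. Mock plants carried the same transgene and received the solution without Dex, harvested at the same time. Myc-GR-bdl is a BODENLOS protein made stable against auxin, fused to a steroid receptor domain that keeps it out of the nucleus until Dex is given, after which it represses AUXIN RESPONSE FACTORs. The 35S promoter is active in most tissues, so that the block was not aimed at one cell type. One label, the growth protocol, speaks of wild type, whereas the genotype used here is the one that the sample titles carry. The accession given by the study for its transgenic lines is Columbia. Each library came from RNA pooled over 3 samples. Plants without the transgene that had been given Dex were not analysed here, so effects of Dex itself and of the induced protein cannot be told apart.

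In secondary walls, cellulose is spun at the plasma membrane by a complex of the 3 synthases CESA4, CESA7 and CESA8, and glucuronoxylan is assembled and acetylated in the Golgi. Lignin starts from phenylalanine: PAL, C4H and 4CL make activated hydroxycinnamic acids, which HCT, C3'H, CSE, CCoAOMT1, F5H1, COMT1, CCR1 and CAD turn into monolignols. Laccases and peroxidases couple monolignols in the wall. Monolignols can also be stored as glucosides, from which the beta-glucosidases BGLU45 and BGLU46 release them in vitro. In the stem these genes are known from xylem vessels and interfascicular fibres, and vessels digest their own contents at the end with proteases such as XCP1 and XCP2.

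Among all these genes the largest change was in the pair of monolignol glucosidases, of which *BGLU46* (AT1G61820) rose 9.74-fold and *BGLU45* (AT1G61810) 3.44-fold in DEX. *IRX14-L* (AT5G67230), a paralogue of the xylan backbone gene *IRX14*, and *4CL2* (AT3G21240), a 4-coumarate:CoA ligase, rose as well. *GUX2* (AT4G33330), a xylan glucuronosyltransferase, *XCP2* (AT1G20850), *RWA1* (AT5G46340), which takes part in wall acetylation, and *C3'H* (AT2G40890), the p-coumaroyl ester 3'-hydroxylase, fell. The 3 secondary wall *CESA* genes were not called, nor was any laccase or peroxidase. Of the 52 genes, 51 passed the filter on low counts, and 8 of these (15.7%) were called, against 11.9% of all 19598 genes tested. The genes that rose numbered 4 (7.84%), where 6.38% of all genes rose, and those that fell also numbered 4, where 5.50% of all genes fell. The share called was thus near that of the transcriptome as a whole. Calls come from edgeR's quasi-likelihood test on total gene reads at a Benjamini-Hochberg adjusted p below 0.05 over all genes tested, and fold changes are DEX over Mock.

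The DNA before the starts of 3 called genes is shown, because *BGLU45* was the most abundant gene that rose and the windows of *IRX14-L* and *C3'H* hold elements known from lignin and stress promoters. The windows are the 250 bases before the annotated gene start in TAIR10.1 (RefSeq), written in the direction of the gene, and lie outside annotated genes. Capitals mark AC-II elements (ACCAACC), known as sites of lignin-activating MYB factors, and G-boxes (CACGTG), known as sites of bHLH and bZIP factors.

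BGLU45, chr1:22829671-22829920, plus strand: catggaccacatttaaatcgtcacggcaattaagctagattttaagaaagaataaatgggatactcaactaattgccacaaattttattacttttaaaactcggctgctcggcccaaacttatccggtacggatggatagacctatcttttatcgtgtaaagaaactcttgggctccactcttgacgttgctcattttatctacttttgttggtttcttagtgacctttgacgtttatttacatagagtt

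IRX14-L, chr5:26822182-26822431, plus strand: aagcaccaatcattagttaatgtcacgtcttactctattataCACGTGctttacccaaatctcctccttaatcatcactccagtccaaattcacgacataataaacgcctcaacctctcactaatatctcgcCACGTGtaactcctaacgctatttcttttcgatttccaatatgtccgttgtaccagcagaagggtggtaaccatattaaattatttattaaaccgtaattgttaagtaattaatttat

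C3'H, chr2:17060653-17060902, minus strand: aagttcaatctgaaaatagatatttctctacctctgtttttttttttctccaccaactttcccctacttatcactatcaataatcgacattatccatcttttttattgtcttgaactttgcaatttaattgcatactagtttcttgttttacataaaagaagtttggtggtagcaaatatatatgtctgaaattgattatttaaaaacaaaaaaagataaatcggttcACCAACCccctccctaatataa

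Both strands were searched for AC-I (ACCTACC), AC-II as above and AC-III (ACCTAAC) elements, for the auxin response element TGTCTC, for its high-affinity form TGTCGG and for the G-box. The window of *BGLU45* held none of them. *IRX14-L* had G-boxes beginning 208 and 118 bases before its start, and *C3'H* had an AC-II element 22 bases before its start. *4CL2* had AC-II elements 140 and 31 bases before its start and TGTCTC at 119. Its window is not shown because 222 of the 250 bases lie in the annotated neighbour AT3G21250. An AC element was found before 10 of the 52 genes and before 6.12% of 27443 promoters of nuclear protein-coding genes. An auxin response element was found before 12 of the 52 and before 14.7% of the promoters. Of the 4 genes that fell, 0 had an auxin response element in the window, and of the 4 that rose, 1 had one. G-boxes stood before 2 of the 52 genes, *IRX14-L* and *PAL4*, and before 6.49% of all promoters. A match is a string of letters and was not tested as a site.

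Total gene reads ranged from 30601253 to 37812400 per library. A count of 3 reads, which a count of 0 allows as an upper limit, equals 0.0793 to 0.0980 CPM in a single library, scaled by library totals alone. This limit covers counting error only, since the reads carry no molecular identifiers. *BDL* (AT1G04550), whose reads include those of the transgene, was at 1461 ± 263 CPM in DEX and 1502 ± 473 CPM in Mock (SD, n = 3 each). The *BDL* count shows that the transcript was abundant in both groups and does not show induction, which acts on the protein. Of the root markers, *PHT1;1* had 0 reads in every library, whereas *NRT2.1* had 16, 22 and 101 reads in DEX and 16, 12 and 35 in Mock and was not called. The summed level of the flower markers *AP3* and *PI* was 0.218 to 0.279 CPM in DEX and 0.193 to 0.541 CPM in Mock. Of the epidermis markers *CER6* was abundant and *PDF1* was near 0. In the other tissues of the stem, 0 of 3 phloem, 0 of 3 green tissue and 0 of 2 tested epidermis markers were called. By contrast, 1 of 2 cambium markers and 1 of 2 starch sheath markers fell. The starch sheath marker that fell was *SHR*, with a log2 fold change of -0.86 ± 0.13 (adjusted p = 0.00572). *SCR*, the other one, was not called (-0.05 ± 0.12, adjusted p = 0.883), so the 2 did not move together. The phloem markers had log2 fold changes of -0.50 ± 0.16 (*SUC2*), 0.44 ± 0.12 (*APL*) and -0.14 ± 0.08 (*SEOR1*), with adjusted p = 0.0873, 0.0515 and 0.353. A missing call thus does not show that the make-up of the tissue was unchanged. The cambium marker that fell, *WOX4*, was at 4.33 ± 0.745 CPM in DEX and 16.0 ± 2.33 CPM in Mock. *PXY*, at 120 ± 33.2 CPM in DEX and 172 ± 23.4 CPM in Mock, was not called (-0.52 ± 0.21, adjusted p = 0.189). The 2 cambium markers together, mostly *PXY*, ranged from 86.4 to 150 CPM in DEX and from 170 to 215 CPM in Mock. Their part in the results below was not tested. In whole internodes, fewer cells of a type and less RNA per cell cannot be told apart.

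The 52 genes together took 2.56% ± 0.205 of all reads in DEX and 2.67% ± 0.0700 in Mock (SD, n = 3 each), so that their sum differed by less than the spread between DEX libraries. In TMM-scaled CPM the order was reversed, with 26188 ± 1567 in DEX and 26100 ± 569 in Mock. The median log2 fold change of the 51 tested genes was -0.02, beside -0.01 for all genes tested, and 26 values were below 0 and 25 above. When scaled by library totals alone, which moved the median of all genes to -0.08, 31 were below 0 and 20 above. The median size of the change, without its sign, was 0.15 on the log2 scale, beside 0.16 over all genes. The DEX and Mock values did not overlap in 12 of the 51 (23.5%), and neither did they in 28.3% of all genes tested. The 43 genes not called had log2 fold changes from -0.45 to 0.27. For 42 of these 43 the 95% interval of the change lay inside a 2-fold change in either direction, and for 36 inside a 1.5-fold change. The exception to the first count was *PRX52*, a low gene whose Mock libraries differed among themselves.

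**Figure D1:**
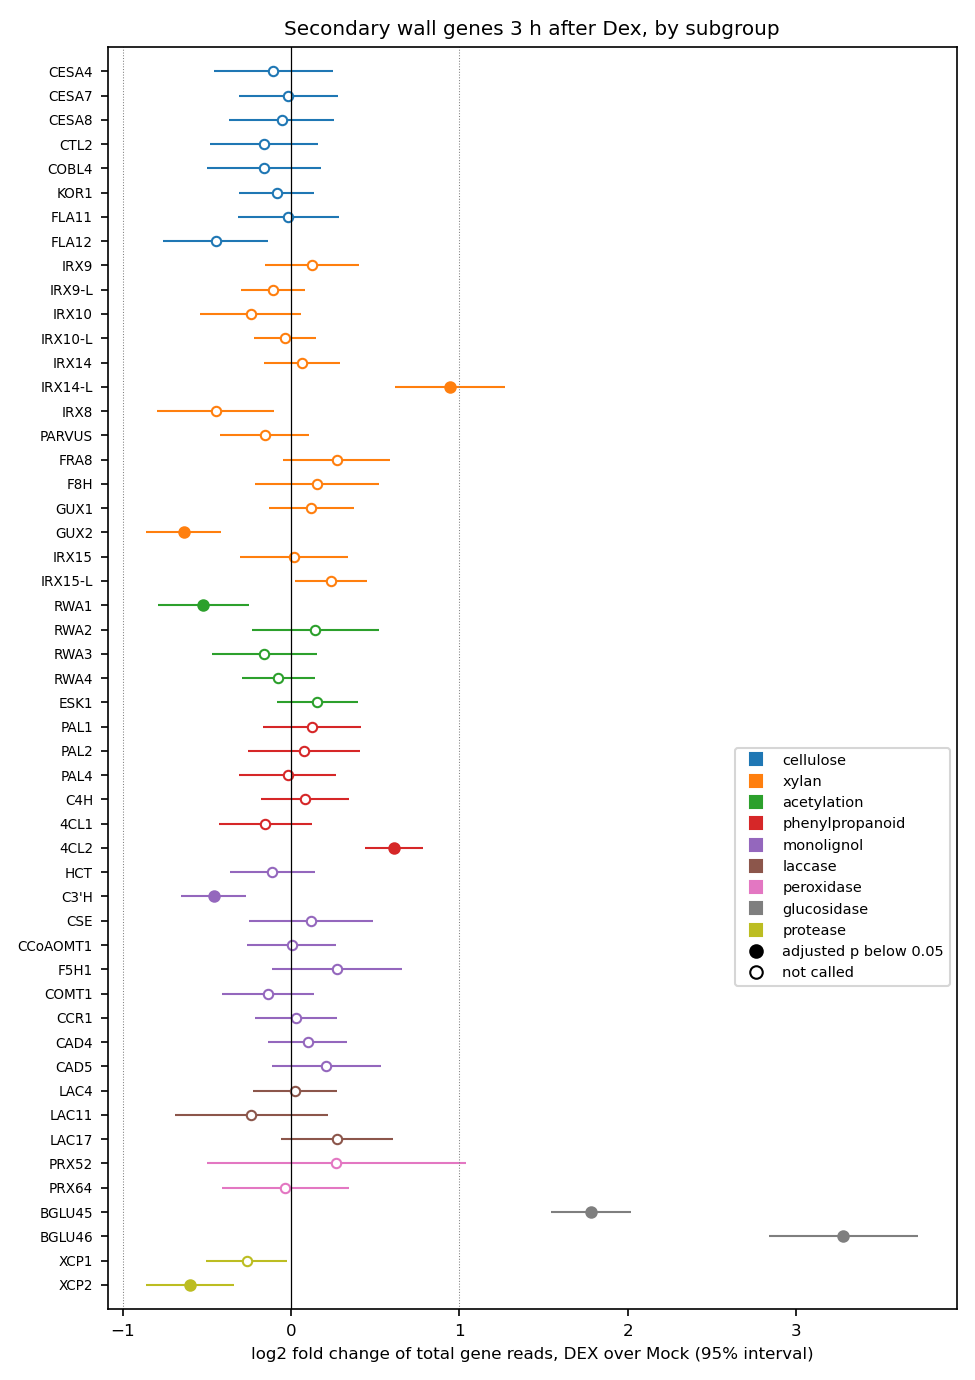
Log2 fold change of total gene reads, DEX over Mock, for the 51 tested wall genes by subgroup, with 95% intervals. Filled points are genes with an edgeR adjusted p below 0.05. The glucosidases *BGLU45* (1.78) and *BGLU46* (3.28) are the only genes here past a change of 1 in size, and the 8 cellulose genes sit below 0 without being called.

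*BGLU46* had 284, 263 and 339 CPM in DEX, against 24.5, 28.4 and 37.97 CPM in Mock. These came from 10176, 8241 and 12421 reads in DEX and 762, 964 and 1474 reads in Mock. The lowest DEX library was well above the highest Mock library. The log2 fold change was 3.28 ± 0.19 (SE, adjusted p = 0.000102), with a 95% interval of 2.84 to 3.73. *BGLU45*, the more abundant of the pair, had 782, 716 and 723 CPM in DEX, against 200, 217 and 228 CPM in Mock. Its groups did not overlap either, and its log2 fold change was 1.78 ± 0.10 (adjusted p = 9.26e-05). Per exon length, in deposited RPKM, *BGLU45* stood at 376, 358 and 351 in DEX, against 103, 113 and 118 in Mock. *BGLU46* stood at 115, 111 and 139 RPKM in DEX, against 10.5, 12.3 and 16.5 RPKM in Mock. In DEX, *BGLU46* was thus at about the level per length that *BGLU45* had in Mock. The ratio of *BGLU46* to *BGLU45* in RPKM was 0.336 ± 0.0508 in DEX and 0.117 ± 0.0197 in Mock, so the less abundant gene rose more. Together they took 1035 ± 48.8 CPM in DEX and 245 ± 21.0 CPM in Mock.

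The pair lies in tandem on chromosome 1 of TAIR10.1, both on the plus strand, *BGLU45* from 22829921 to 22834728 and *BGLU46* from 22835078 to 22838635, with 349 bases between them. The next genes on either side were not called. *GPT2* (AT1G61800), before *BGLU45*, had a log2 fold change of 0.31 ± 0.37 (adjusted p = 0.705), and the pseudogene AT1G61830, after *BGLU46*, one of 0.13 ± 0.25 (adjusted p = 0.823). All reads of both glucosidase genes were unique. *BGLU45* is overlapped by 2 annotated antisense non-coding RNAs, over 252 and 190 bases at its far end. The library kit marks strand, but no source used here says that the counting did, so reads of such partners cannot be told apart.

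**Figure D2:**
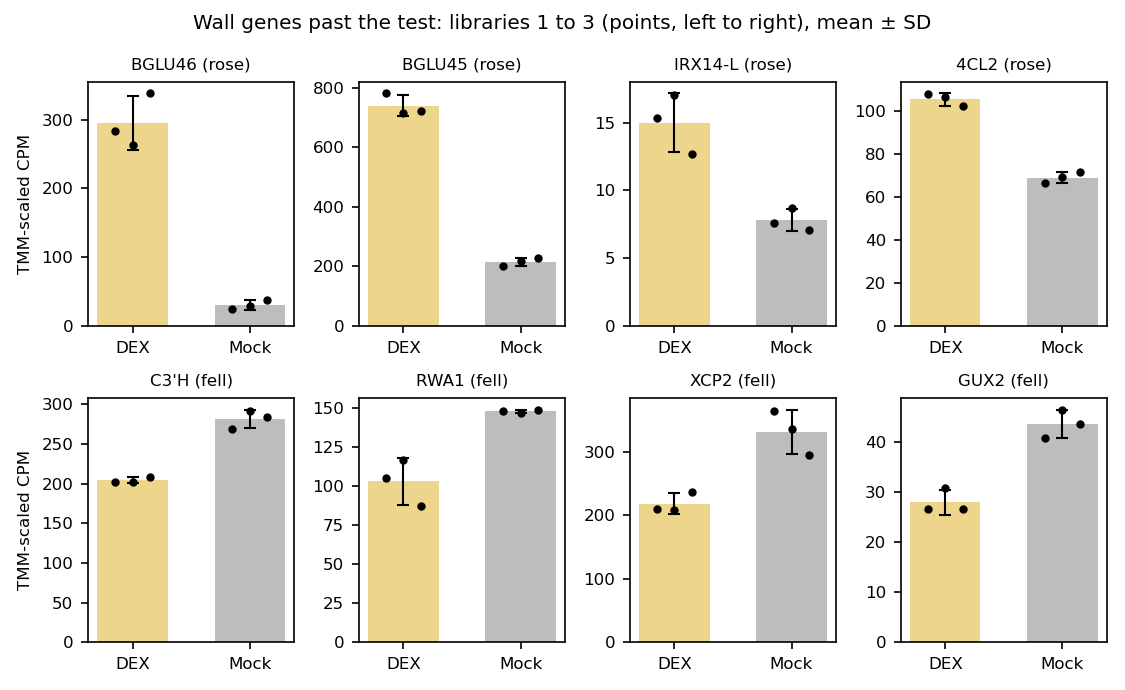
TMM-scaled CPM of the 8 called wall genes, DEX left of Mock. Bars are means, error bars the SD of 3 libraries and points the single libraries. In every panel the 3 DEX points lie on one side of the 3 Mock points, from *BGLU46* with means of 295 in DEX and 30.3 in Mock to *C3'H* with 205 in DEX and 282 in Mock.

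Intron reads, which can come from RNA not yet spliced, were counted separately by the authors and tested with the same scaling. *BGLU45* had 708, 561 and 947 intron reads in DEX, against 104, 160 and 189 in Mock. *BGLU46* had 73, 43 and 121 intron reads in DEX, against 5, 4 and 10 in Mock. In both genes every DEX library lay above every Mock library, as for the gene reads. The log2 fold change of intron reads was 2.29 ± 0.28 for *BGLU45* (adjusted p = 3.88e-05) and 3.60 ± 0.42 for *BGLU46* (adjusted p = 3.19e-05). Intron reads made up 2.88% of the gene reads of *BGLU45* in DEX and 2.02% in Mock, and 0.769% of those of *BGLU46* in DEX and 0.594% in Mock. Such reads can also come from exons that the annotation used for counting does not hold, and these cannot be told apart here.

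Among the 52 genes, 30 had enough intron reads to be tested, 15 had some but too few, and 7 had none. Of the 30, the 2 glucosidases rose, where 5.17% of the 2725 genes tested on introns rose, and 0 fell, where 2.06% of them fell. An unadjusted p below 0.05 was found for 4 of the 30, namely both glucosidases, *C3'H* and *RWA1*. *C3'H* had 6, 5 and 3 intron reads in DEX, against 10, 13 and 16 in Mock. All DEX values were the lower ones, with a log2 fold change of -1.44 ± 0.47 that missed the threshold (adjusted p = 0.0833). *RWA1* had 16, 25 and 19 intron reads in DEX, against 40, 50 and 18 in Mock, and its groups overlapped through the third Mock library (log2 fold change -0.86 ± 0.41, adjusted p = 0.297). Without that library it was -1.24 and was called (adjusted p = 0.0399). For *4CL2*, with 24, 25 and 14 intron reads in DEX and 12, 12 and 14 in Mock, the log2 fold change was 0.74 ± 0.38 (adjusted p = 0.356). Over the 30 genes, 19 values were below 0 and 11 above, with a median of -0.18, beside 0.02 for all genes tested on introns.

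**Figure D3:**
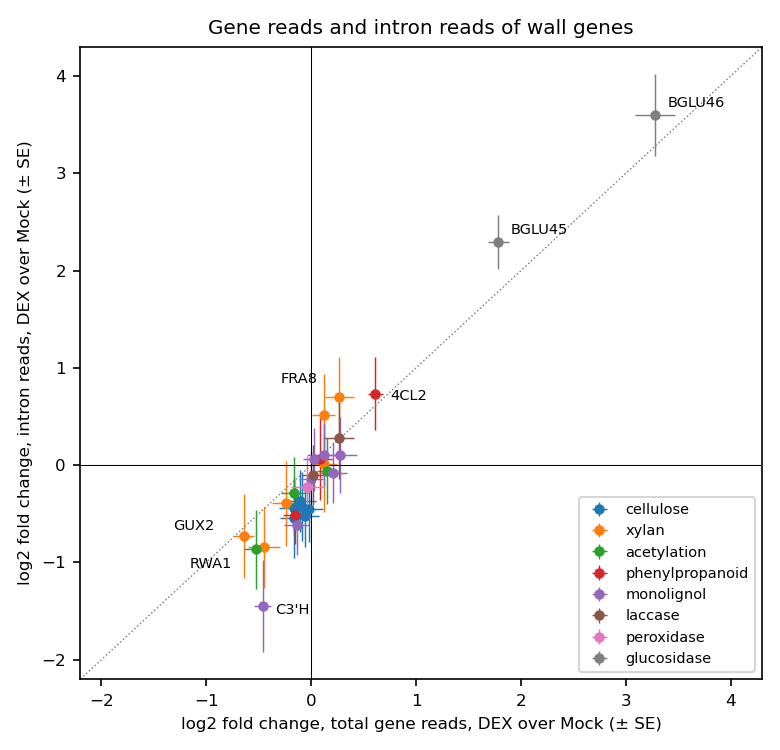
Log2 fold change of intron reads (vertical) against that of total gene reads (horizontal), DEX over Mock, for the 30 wall genes with enough intron reads, with SE bars; the dotted line marks equal change. *BGLU45* and *BGLU46* stand apart at the upper right, and *C3'H* is lowest on introns at -1.44. The SE on introns runs from 0.28 for *BGLU45* to 0.49 for *IRX9*.

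The genes of cellulose synthesis were 8, and 0 of them were called. *CTL2* (AT3G16920), a chitinase-like protein needed for cellulose deposition, was the most abundant per length, at 1270, 1583 and 1598 RPKM in DEX, against 1534, 1918 and 1774 RPKM in Mock. Its groups overlapped, and its log2 fold change was -0.16 ± 0.14 (adjusted p = 0.571). *CESA4*, *CESA7* and *CESA8* averaged 402 ± 82.3, 309 ± 45.9 and 300.2 ± 48.0 RPKM in DEX and 453 ± 23.3, 327 ± 21.7 and 327 ± 17.3 RPKM in Mock (SD, n = 3 each). The 3 synthases, which work in one complex, thus stood at like levels, and their log2 fold changes were -0.11, -0.02 and -0.06. The widest of their 95% intervals, that of *CESA4*, ran from -0.46 to 0.25. For *CESA8* 86.2% of the reads were unique, and on unique reads alone its log2 fold change was -0.06. *FLA12* (AT5G60490), a fasciclin-like arabinogalactan protein of secondary walls, had the lowest value, with 326, 378 and 320 CPM in DEX, against 529, 471 and 399 CPM in Mock. These groups did not overlap, and the change of -0.45 ± 0.13 missed the threshold (adjusted p = 0.0747). Its relative *FLA11* had a log2 fold change of -0.02 ± 0.13. All 8 values were below 0, with a median of -0.10, but with 1 library left out *CESA7*, *CESA8* and *FLA11* reached up to 0.04, 0.05 and 0.05. The summed level was 8305 ± 735 CPM in DEX and 8952 ± 408 CPM in Mock. Among primary wall cellulose genes (*CESA1*, *CESA2*, *CESA3*, *CESA5*, *CESA6*, *CTL1*, *COB* and *CSI1*), 0 of 8 were called, with a median log2 fold change of 0.08. *CESA2* missed the threshold at 0.87 ± 0.27 (adjusted p = 0.0918), with a wide 95% interval of 0.23 to 1.51.

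Of the 14 xylan genes, 1 rose and 1 fell, both of them among the least abundant. *IRX14-L* had 15.3, 17.0 and 12.7 CPM in DEX, against 7.56, 8.72 and 7.11 CPM in Mock. The DEX libraries were all higher, by a log2 fold change of 0.94 ± 0.14 (adjusted p = 0.00505). Per length it stood 13th of the 14 genes, at 8.84 ± 1.37 RPKM in DEX and 4.82 ± 0.524 RPKM in Mock. *IRX14* itself, at 79.4 ± 8.70 RPKM in DEX and 79.8 ± 3.73 RPKM in Mock, was not called (log2 fold change 0.06, 95% interval -0.16 to 0.29). *IRX14-L* (chromosome 5, 26822432 to 26824328, plus strand) is overlapped over 93 bases by *SDN3* and over 403 bases by an antisense non-coding RNA, and *SDN3* was not called (-0.08 ± 0.13). Its near neighbour *IRX15-L*, 2274 bases away, had 245, 266 and 241 CPM in DEX, against 224, 216 and 199 CPM in Mock, which missed the threshold (0.23 ± 0.09, adjusted p = 0.172).

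*GUX2* adds glucuronic acid to xylan, as *GUX1* does in another spacing. It had 26.6, 30.8 and 26.5 CPM in DEX, against 40.7, 46.4 and 43.5 CPM in Mock. All DEX libraries were lower, and the log2 fold change was -0.64 ± 0.10 (adjusted p = 0.00498). *GUX1*, at 147 ± 14.2 RPKM in DEX and 143 ± 12.1 RPKM in Mock, was not called (0.12 ± 0.11, adjusted p = 0.605). The most abundant xylan gene, *IRX15* (AT3G50220), a DUF579 protein needed for normal xylan length, was at 289, 335 and 230 RPKM in DEX, against 293, 304 and 288 RPKM in Mock. Its groups overlapped (0.02 ± 0.14, adjusted p = 0.967). *IRX8*, which acts on the reducing-end sequence of xylan, had 186, 257 and 187 CPM in DEX and 266, 314 and 282 CPM in Mock. Its groups did not overlap, and its change missed the threshold (-0.45 ± 0.15, adjusted p = 0.110). The backbone genes *IRX9* and *IRX10* and the reducing-end genes *FRA8* and *PARVUS* were not called, with values of 0.12, -0.24, 0.27 and -0.16. Of 9 further xylan genes, 1 fell, where 5.50% of all genes tested fell. It was the glucuronoxylan methyltransferase *GXMT1* (59.2 ± 8.06 CPM in DEX and 84.1 ± 1.12 CPM in Mock, adjusted p = 0.0206).

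In acetylation, 1 of 5 genes fell. *RWA1* had 105, 117 and 87.1 CPM in DEX, against 148, 147 and 149 CPM in Mock, where the 3 libraries were nearly alike. The log2 fold change was -0.52 ± 0.11 (adjusted p = 0.0263). It overlaps *FLS2*, on the other strand, over 172 bases, and *FLS2* was not called (-0.10 ± 0.13). The other RWA genes, thought to supply acetyl groups to the Golgi with *RWA1*, had log2 fold changes of 0.14 (*RWA2*), -0.16 (*RWA3*) and -0.08 (*RWA4*). Per length the 4 RWA genes were close together, between 43.9 and 50.4 RPKM on average in DEX and between 45.1 and 66.5 in Mock. *ESK1* (AT3G55990), a xylan acetyltransferase and the most abundant of the subgroup, had 102, 128 and 111 RPKM in DEX, against 98.9, 109 and 113 RPKM in Mock, with overlapping groups (0.16 ± 0.10, adjusted p = 0.448).

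**Figure D4:**
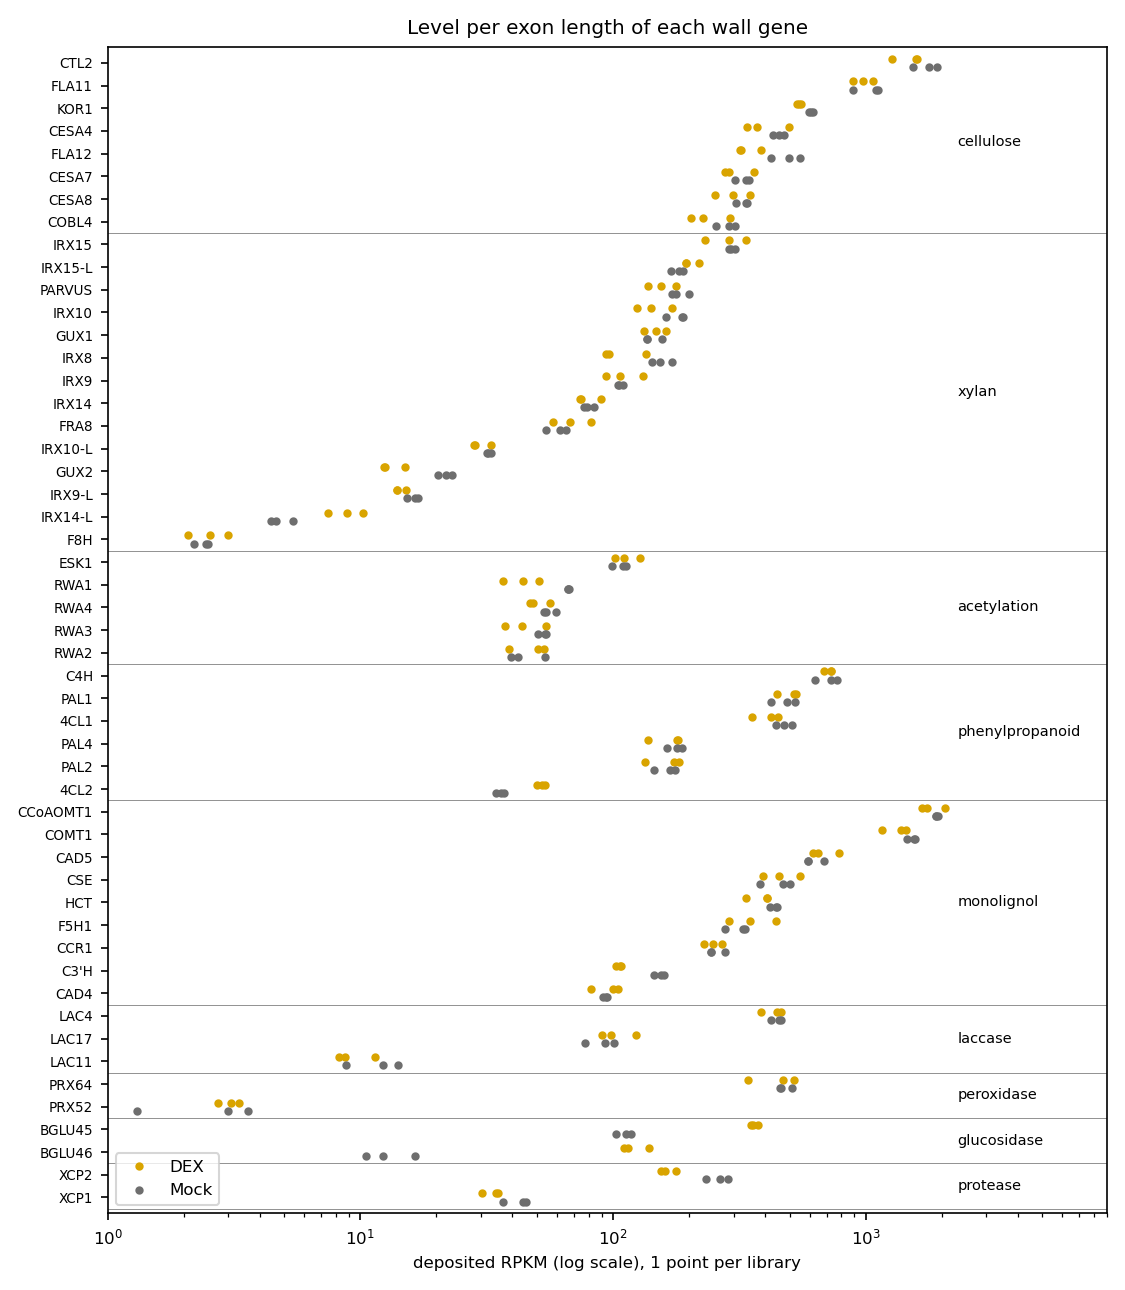
Deposited RPKM of the 51 tested wall genes on a log scale, with 1 point per library, DEX above Mock in each row and genes ordered by mean level within subgroups. Levels run from *F8H* near 2.46 RPKM to *CCoAOMT1* near 1867 RPKM, and the groups are widely separated in *BGLU45* and *BGLU46*.

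The general phenylpropanoid pathway showed 1 rise among 6 genes. *4CL2* had 108, 107 and 102 CPM in DEX, against 66.5, 69.2 and 71.6 CPM in Mock. Its groups were far apart for their spread, with a log2 fold change of 0.61 ± 0.07 (adjusted p = 0.00194). Per length it was the lowest of the 6, at 50.1 to 53.6 RPKM in DEX and 34.3 to 37.2 RPKM in Mock. *4CL1*, the main isoform here, was at 408 ± 47.8 RPKM in DEX and 476 ± 35.7 RPKM in Mock and was not called (-0.15 ± 0.12, adjusted p = 0.524). *C4H* (AT2G30490), the cinnamate 4-hydroxylase and the most abundant of the 6, had 685, 727 and 729 RPKM in DEX, against 628, 726 and 768 RPKM in Mock. Its groups overlapped (0.08 ± 0.11, adjusted p = 0.743). *PAL1*, *PAL2* and *PAL4*, which code for phenylalanine ammonia-lyases, had log2 fold changes of 0.12, 0.07 and -0.02.

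Of the 9 monolignol genes, 1 fell. *C3'H* had 203, 202 and 209 CPM in DEX, against 269, 292 and 284 CPM in Mock. Both groups were tight and apart, with a log2 fold change of -0.46 ± 0.08 (adjusted p = 0.0110). Per length it was 8th of the 9 genes, at 106 ± 2.71 RPKM in DEX and 153 ± 7.25 RPKM in Mock. It overlaps *CYSA* over 70 bases and a non-coding RNA over 529 bases, both on the other strand, and *CYSA* was not called (-0.02 ± 0.12). *CCoAOMT1* (AT4G34050), a methyltransferase of lignin synthesis, was the most abundant of all 52 genes, at 1672, 2055 and 1746 RPKM in DEX, against 1900, 1901 and 1929 RPKM in Mock. Its log2 fold change was 0.00 with a 95% interval of -0.26 to 0.27. *HCT*, the step before *C3'H*, had -0.11 ± 0.11, and *CSE*, after it, 0.12 ± 0.16. *F5H1*, *COMT1*, *CCR1*, *CAD4* and *CAD5* lay between -0.14 and 0.27. For *CCR1* only 63.3% of the reads were unique.

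Laccases and peroxidases were not called. *LAC4* (AT2G38080), the most abundant laccase, was at 386, 463 and 444 RPKM in DEX, against 463, 452 and 422 RPKM in Mock (0.02 ± 0.11, adjusted p = 0.946). *LAC11* and *LAC17* had log2 fold changes of -0.24 and 0.27, and only 21.4% of the *LAC17* reads were unique, so that its value is uncertain. *PRX64* (AT5G42180), known for Casparian strip lignin in roots, was the most abundant of the 3 member peroxidases. It had 471, 522 and 342 RPKM in DEX, against 513, 461 and 459 RPKM in Mock, with overlapping groups (-0.03 ± 0.16). *PRX42*, from a further list, was higher, at 3187 ± 247 RPKM in DEX and 3025 ± 286 RPKM in Mock. *PRX52* had 125, 128 and 142 reads in DEX, against 49, 122 and 166 in Mock. *PRX72* was the gene below the filter, with 1, 0 and 1 reads in DEX and 13, 1 and 0 in Mock.

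Of the 2 xylem proteases, 1 fell. *XCP2* had 210, 209 and 237 CPM in DEX, against 364, 336 and 295 CPM in Mock. Its groups did not overlap, and its log2 fold change was -0.60 ± 0.11 (adjusted p = 0.0131). Per length it had 154, 160 and 177 RPKM in DEX, against 285, 265 and 233 RPKM in Mock. *XCP1*, with 42.6, 46.7 and 48.5 CPM in DEX and 59.9, 57.6 and 48.2 CPM in Mock, overlapped at a single library of each group, and its change of -0.27 ± 0.10 missed the threshold (adjusted p = 0.173). Of 5 further genes of xylem cell death, 2 fell, where 5.50% of all genes tested fell. They were the serine carboxypeptidase-like *SCPL48* (103 ± 6.07 CPM in DEX and 158 ± 8.75 CPM in Mock, adjusted p = 0.00400) and the xylem serine protease *XSP1* (30.3 ± 0.597 CPM in DEX and 46.9 ± 7.60 CPM in Mock, adjusted p = 0.0162).

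The 4 rises kept their call in each of 14 alternative settings, and the falls were less firm. Without Mock library 2, which left 5 calls in place of 8, *GUX2* was the only fall called, and *RWA1*, *C3'H* and *XCP2* had adjusted p = 0.0965, 0.0675 and 0.0626. *RWA1* was also lost without any one of DEX library 1, Mock library 1 and Mock library 3, and *XCP2* without DEX library 2.

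Several genes with a close relative among the 52 moved while the relative was not called. The pairs below were picked for this after the values were seen, so the ratios of their RPKM are given as a description only. The ratio of *IRX14-L* to *IRX14* was 0.111 ± 0.00908 in DEX and 0.0603 ± 0.00367 in Mock, and that of *4CL2* to *4CL1* was 0.129 ± 0.0160 in DEX and 0.0754 ± 0.00267 in Mock. The ratio of *GUX2* to *GUX1* was 0.0903 ± 0.00573 in DEX and 0.152 ± 0.00710 in Mock, and that of *XCP2* to *XCP1* was 4.93 ± 0.257 in DEX and 6.22 ± 0.163 in Mock (SD, n = 3 each).

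Other genes of lignin metabolism, from a further list, changed in part. Of 8 such genes, 3 rose and 1 fell, where 6.38% of all genes tested rose and 5.50% fell. *PAL3*, a minor phenylalanine ammonia-lyase, had 7.14 ± 2.25 CPM in DEX and 17.1 ± 2.40 CPM in Mock (log2 fold change -1.26 ± 0.22, adjusted p = 0.0101). *ABCG29*, known as a transporter of p-coumaryl alcohol, rose to 209.7 ± 17.0 CPM in DEX, against 151 ± 3.83 CPM in Mock (adjusted p = 0.0152), and *4CL5* to 117 ± 8.06 CPM in DEX, against 83.6 ± 10.2 CPM in Mock (adjusted p = 0.0297). The third rise was *UGT72E3*, a glucosyltransferase of monolignols, named here after its values were seen. It was near the detection limit, at 0.472 ± 0.173 CPM in DEX and 0.148 ± 0.0450 CPM in Mock (adjusted p = 0.0466). *UGT72E1* and *UGT72E2* of the same list were not called, with log2 fold changes of 0.29 ± 0.19 and 0.29 ± 0.87 (adjusted p = 0.456 and 0.896). Of 4 tested further laccases *LAC10* rose (46.8 ± 5.55 CPM in DEX and 33.0 ± 1.57 CPM in Mock, adjusted p = 0.0193), and *LAC16* had 0 reads. Of 4 further peroxidases and 5 genes of the flavonoid branch, which draws on the same precursors, 0 were called. That does not show that these genes were unchanged. The flavonoid genes had a median log2 fold change of -0.70, with uneven Mock values in *CHS* (17.2, 7.10 and 1.78 CPM). Among the further peroxidases, with a median of -0.09, *PRX25* missed the threshold at 0.81 ± 0.22 (adjusted p = 0.0535).

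Of 14 transcription factors of secondary walls, 1 rose and 2 fell, where 6.38% of all genes tested rose and 5.50% fell. *NST1*, a master switch of fibre walls, rose to 141 ± 18.8 CPM in DEX, against 88.4 ± 7.76 CPM in Mock (adjusted p = 0.0112). *NST3*, which acts redundantly with it, fell to 67.3 ± 9.63 CPM in DEX, against 118 ± 13.6 CPM in Mock (adjusted p = 0.00817), and *MYB85*, an activator of lignin genes, to 24.1 ± 5.11 CPM in DEX, against 45.5 ± 4.16 CPM in Mock (adjusted p = 0.0108). *MYB46*, *MYB83*, *MYB58* and *MYB63* were not called, with log2 fold changes of 0.23, 0.16, -0.27 and -0.14.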

How the data were processed

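RNA-seq libraries, 3 DEX and 3 Mock, came from the second internode of plants that carry *p35S:Myc-GR-bdl*. They were grouped by the treatment named in their titles, which also number the replicates. The authors aligned single-end reads to TAIR10 with CLC Genomics Workbench and deposited counts per gene: all reads of the gene, those that map uniquely, those in exons and those in introns. The deposited RPKM values are exon reads scaled by exon length and by the gene reads of the library, and were used for levels between genes without a test. They were rebuilt from the counts with a largest relative difference of 1.6e-14.

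Each table held 33323 entries. Of these, 5 had no gene name, holding 0.0930% to 0.135% of each library, and stayed out of all steps, and 2 repeated identifiers were summed, which gave 33316 genes. Depth was 30601253 to 37812400 gene reads per library. No 2 libraries of a group were duplicates by a chi-square test of their counts.

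Counts were analysed with edgeR 4.0.16 in R 4.3.3: filterByExpr (19598 genes kept), TMM scaling and a two-sided quasi-likelihood F test, with Benjamini-Hochberg adjustment over all genes kept and a threshold of 0.05. Standard errors were obtained as |log2 fold change|/√F. CPM are TMM-scaled. Intron reads were tested in the same way on 2725 genes, with library sizes and factors from the total gene reads. The procedure was run on simulated data with 200 changed genes and the same dispersion for every gene. Dispersion differs between genes in the data, so that run does not measure the error of the calls here. The study's RNA methods describe biological replicates of 3 plants each, so p-values measure the spread between such pools. Alternatives were other scaling, other filters, DESeq2 1.42.0, unique or exon reads, the replicate number as a block, and each library left out.

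All 52 genes are accounted for. Values in every library are given for called genes, genes past a log2 change of 1 in size and the most abundant gene of each subgroup by RPKM. Up to 3 called genes are named from each of 8 further lists, and *UGT72E3* is named beyond that number. The 7 marker lists were used to check the tissue. The members and the lists were chosen with earlier results of these data known. Positions and promoters are from TAIR10.1 by identifier, since the tables hold no coordinates. One promoter sequence is not reported here.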

Additional observations from a re-analysis of the deposited data

How the results depend on the processing

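Of 714 values of single genes under 14 alternatives to the test on gene reads, 700 kept their side of the threshold, 7 lost a call and 7 gained one, and 0 called values changed direction. With 1 library left out at a time, the number of members called ranged from 5 to 8 and the number that fell from 1 to 4, both lowest without Mock library 2, while 4 rose each time. The cause was not tested. *RWA1* ranged from -0.62 to -0.41 over the alternatives (adjusted p 0.00148 to 0.0965). Gained calls were *FLA12* under library totals, DESeq2, the replicate block and without Mock library 3, and *IRX8* under DESeq2, the replicate block and without DEX library 2. With the replicate block, 10 members were called (4 rose, 6 fell), and all 8 of the unblocked fit were among them. The replicate numbers were not taken as pairs in the main test. Same-numbered libraries deviated together with correlations of 0.52, 0.02 and 0.51. DEX library 2 correlated best with Mock library 1, at only 0.13. DEX library 1 with Mock library 3 and DEX library 3 with Mock library 1 were at -0.47 and -0.54. These values do not settle whether the numbers mark pairs. DESeq2 also called 10. On intron reads, 298 of 299 values kept their side; the 2 glucosidases rose under all 10 alternatives, and *RWA1* was called as a fall without Mock library 3, so that with 1 library left out the members called on introns ranged from 2 to 3 and those that fell from 0 to 1. Of the 52 genes, 15 had too few intron reads for the test and 7 had none, abundant ones such as *IRX15* among them.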
